A study of Homo sapiens with 3 samples.

Results

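The regions described here are the peaks of the Flag library that lie far from any gene end: their summits fall outside every protein-coding gene and more than 1 kb from both ends of every annotated gene of any class. They number 1597 of the 5080 Flag peaks on the chromosome parts compared (31.4%, exact 95% interval 30.2 to 32.7), of 5719 peaks in the whole Flag list and 7535 in both lists of the series. Chromosome 8 from 66 Mb, chromosome 10 from 95 Mb and chromosome 17 from 40 Mb were left out by the rule. The rule uses position alone, and no strength or read count entered it.

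The cells were HCT116, an established human colorectal cancer line, grown in DMEM with serum, and per the labels they overexpressed VCP carrying a Flag tag. Fixed chromatin, digested in part with micrococcal nuclease, was precipitated with an antibody to Flag (1 library) or to VCP (1 library), and 1 input library was made. All 3 libraries came from cells described in the same way, and no library of cells without the tagged protein is used here. There are no replicates, so values are set side by side with 95% intervals that cover counting error only, and no test between groups was possible.

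VCP is an ATPase that pulls ubiquitin-tagged proteins out of membranes, complexes and chromatin, usually so that the proteasome can degrade them. Sequence far from gene ends holds enhancers, which are bound by transcription factors and act on promoters at a distance, together with repeats and long stretches with no known role. A peak there is a position only, and the gene nearest to it need not be a gene it acts on.

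In outline, these regions were weak, thinly spread and uneven. The median region rested on 11 reads at its summit with a fold enrichment of 3.34 over the local background. Regions were most frequent per megabase of available sequence within 5 kb of a protein-coding gene, and where protein-coding genes are packed most densely. The regions with low background and the highest -log10 q lay near HES1, IER5, PLXDC1, ID1, IGF2BP3, ARHGAP12 and BHLHE40, and the longest runs of neighbouring regions lay in and beside the non-coding genes MIR31HG, LINC-PINT and ERRFI1-DT. A separate small group, on chromosomes 1, 3, 16 and 17, had the highest -log10 q of the set but low fold enrichment, over local backgrounds of 54.9 to 1945 reads.

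Sequence is shown where a summit met a RefSeq window around a transcript start (GRCh38.p14, 300 bases, read on the strand of the gene). Of the 1561 regions on chromosomes with such windows, 2 had their summit inside one. Both are shown because they are the places where the peaks described here touch an annotated start that lies away from the outer ends of its gene. The 21 bases centred on the summit are in capitals.
MIR9-1HG: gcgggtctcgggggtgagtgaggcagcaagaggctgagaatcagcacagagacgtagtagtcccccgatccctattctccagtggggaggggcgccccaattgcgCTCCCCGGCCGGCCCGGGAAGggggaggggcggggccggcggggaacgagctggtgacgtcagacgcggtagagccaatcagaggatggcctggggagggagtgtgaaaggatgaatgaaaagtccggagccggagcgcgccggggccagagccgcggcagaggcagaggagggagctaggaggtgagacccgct
LOC389602: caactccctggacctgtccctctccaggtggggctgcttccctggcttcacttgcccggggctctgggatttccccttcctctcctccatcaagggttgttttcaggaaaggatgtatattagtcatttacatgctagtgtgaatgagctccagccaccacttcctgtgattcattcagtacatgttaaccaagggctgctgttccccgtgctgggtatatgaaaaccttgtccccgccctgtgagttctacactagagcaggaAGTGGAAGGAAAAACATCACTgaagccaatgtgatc
The MIR9-1HG window is chr1:156421720-156422019 on the minus strand, and the region over it is chr1:156421853-156422061, with a fold enrichment of 3.67 and 11 reads. MIR9-1HG is the non-coding host gene of the microRNA miR-9-1, and the summit lay 1475 bp from the end of MIR9-1. The LOC389602 window is chr7:155962307-155962606 on the plus strand, and the region over it is chr7:155962536-155962715, with a fold enrichment of 3.51 and 9 reads. The windows differ in base composition: the MIR9-1HG window has 67.7% G and C and 24 CpG dinucleotides, and the LOC389602 window 51% and 3, beside medians of 58.7% and 14 over the 35116 windows of the table. Both strands were searched for 3 motifs: GGGCGG, bound by SP factors, TGANTCA, bound by AP-1, and GGAAGTG, bound by ETS factors. GGGCGG is in each of the windows and in 45.0% of all windows. TGANTCA is in the LOC389602 window and in 7.71% of all, and GGAAGTG is there and in 11.2% of all, with 0 of the matches overlapping another. In all, 9 of 1561 regions on chromosomes with such windows lay within 1 kb of an annotated transcript start inside a gene (0.577%, exact 95% interval 0.264 to 1.09). The strongest of these was 745 bp from a start inside the non-coding gene LOC105379083, at chr5:93163149-93163336 (fold enrichment 6.12, 19 reads), and its nearest protein-coding gene was NR2F1, 419990 bp away.

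Distance to the nearest gene was measured from the summit. The nearest end of a gene of any class was a median of 14054 bp away (95% interval 12420 to 15967; quartiles 5076 and 40035), and the nearest protein-coding gene a median of 82648 bp away (70870 to 96592; quartiles 17516 and 296963). The nearest end belonged to a long non-coding RNA gene for 727 regions (45.5%), to a pseudogene for 412 (25.8%) and to a protein-coding gene for 390 (24.4%). For most regions the nearest end was thus not that of a protein-coding gene, but only 19866 of the 58961 genes used are protein-coding. The rule also leaves out the bodies of protein-coding genes. These shares were not set against those of the sequence that meets the rule. By 50 kb, 42.5% of the regions had met a protein-coding gene, and by 500 kb 85.7% had. A body of a non-coding gene held 369 regions (23.1%, exact 95% interval 21.1 to 25.3), and 22.0% of the sequence that meets the rule lies in such bodies. The rates were 1.07 regions per Mb inside such genes (0.965 to 1.19) and 1.01 outside every gene (0.953 to 1.07).

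The amount of sequence differs between distances. The sequence that meets the rule comes to 1562 Mb, and it held 1.02 regions per Mb (exact Poisson 95% interval 0.973 to 1.07). By the same measure bodies of protein-coding genes held 1.15 Flag peaks per Mb, ends of other genes 3.4 and ends of protein-coding genes 27.1. Within 1 to 5 kb of a protein-coding gene the far regions reached 2.07 per Mb (1.77 to 2.40, 175 regions), and at 5 to 10 kb 1.62 (1.36 to 1.92). The rate was 1.11 at 10 to 50 kb, 0.870 at 50 to 100 kb and 1.02 at 100 to 500 kb. From 10 to 500 kb it therefore showed no steady fall. Over 500 kb from a protein-coding gene it was 0.640 (0.560 to 0.728), but 0.989 (0.861 to 1.13) once chromosome Y and 27 gene-free stretches longer than 1 Mb were left out. Chromosome Y was left out there after its values were seen. The gene-free stretches make up 9.36% of the sequence and held 29 regions. How much of these stretches can be aligned to by reads was not examined, and its part in the low rate was not tested.

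Within 5 kb the start side of genes had the higher rate. At 1 to 5 kb from a gene whose strand is known, 94 regions lay upstream of the gene, 2.69 per Mb (exact Poisson 95% interval 2.18 to 3.29), and 47 downstream of it, 1.40 per Mb (1.03 to 1.86), and these intervals do not overlap. At 5 to 10 kb the sides had 1.54 (1.15 to 2.0) and 1.68 (1.26 to 2.21), whose intervals do. Among regions with a q of at most 0.05 the rates at 1 to 5 kb were 0.831 upstream (0.556 to 1.19) and 0.476 downstream (0.272 to 0.773), and those intervals overlap. The 17 regions nearest to the limit of 1 kb, from 1001 to 1094 bp, had a median fold enrichment of 3.51. The 17 Flag peaks just on the other side of it and outside protein-coding genes, from 901 to 995 bp, had a median of 3.22.

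**Figure D1:**
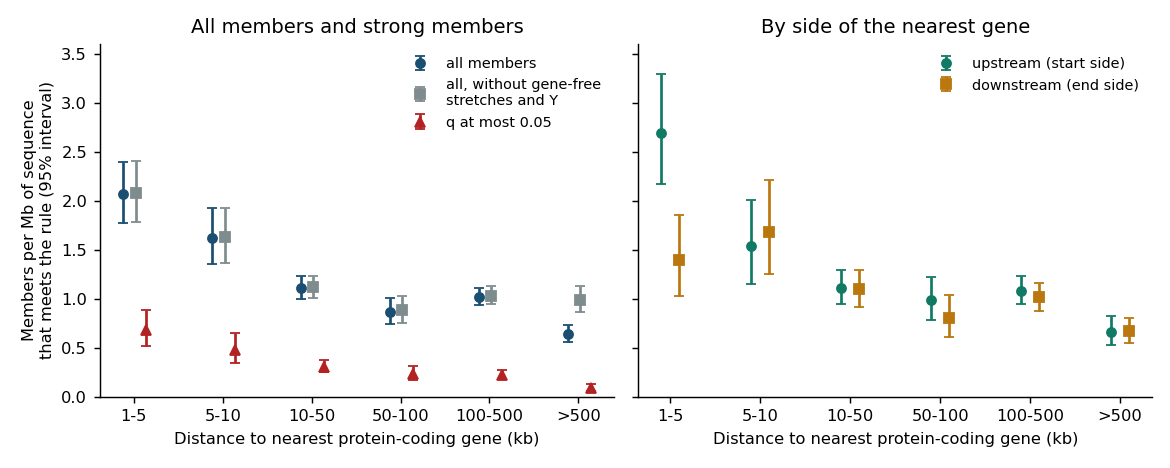
Regions per Mb of sequence that meets the rule (vertical axis) by distance to the nearest protein-coding gene in kb (horizontal axis), with exact Poisson 95% intervals, for all regions, without gene-free stretches and chromosome Y, and with a q of at most 0.05 (left), and by side of the nearest gene (right). The rate is 2.07 at 1 to 5 kb, near 1 from 10 to 500 kb and 0.640 over 500 kb, and at 1 to 5 kb the upstream side has 2.69 and the downstream side 1.40.

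Protein-coding genes that were the nearest to a region, and within 10 kb of it, carried a Flag peak at their own end in a larger share than all genes did. Over all protein-coding genes on the compared parts 11.4% had a Flag peak within 1 kb of an end. Of the 1133 genes that were nearest to a region 128 did (11.3%, exact 95% interval 9.51 to 13.3). Within 10 kb the share was 57 of 283 (20.1%, 15.6 to 25.3), and at 10 to 50 kb it was 27 of 313 (8.63%, 5.76 to 12.3). The number of genes nearby was not matched between these shares of genes, and its part in them was not tested. Of the regions themselves 13.9% had a Flag peak at a protein-coding gene end within 100 kb.

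Gene density was counted as the protein-coding genes within 500 kb on each side of a summit. The median was 4 genes for the far regions (quartiles 1 and 9) and 3 for the sequence that meets the rule. It was 8 for Flag peaks in bodies of protein-coding genes, 11 for those at ends of other genes, and 13 for those at ends of protein-coding genes (95% interval 12 to 14). A window with 10 or more genes held 24.8% of the far regions (exact 95% interval 22.7 to 27.0) and 64.7% of the peaks at protein-coding gene ends (62.5 to 66.9). The rule itself keeps regions out of protein-coding genes, so part of that gap is built in, and the sequence that meets the rule is the closer reference.

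Against that reference the intervals overlapped with 1 to 4 and with 5 to 9 genes, and the rate was higher in both denser classes. It was 0.991 per Mb with 1 to 4 genes (exact Poisson 95% interval 0.915 to 1.07), 1.01 with 5 to 9 (0.909 to 1.13), 1.31 with 10 to 19 (1.14 to 1.49) and 2.69 with 20 or more (2.31 to 3.11, 181 regions). With no gene in the window it was 0.640, the same regions as those over 500 kb from a gene. In the densest class the rate was 3.02 (2.47 to 3.65) at 1 to 10 kb from a protein-coding gene and 2.43 (1.26 to 4.25) over 50 kb from one, although the latter rests on 12 regions. Where 1 to 4 genes lay in the window these rates were 1.26 (0.864 to 1.76) and 0.975 (0.891 to 1.07). Chromosome 19, which is rich in genes, had 2.70 regions per Mb (2.07 to 3.47, 62 regions), more than any other chromosome. Chromosome X had 0.469 (0.345 to 0.624) and chromosome 4 had 0.752 (0.601 to 0.928). DNA copy number of the chromosomes was not examined, and its part in their rates was not tested. Chromosome Y had 0 regions on 52.8 Mb, an upper 95% bound of 0.0699 per Mb. That sequence was not screened for assembly gaps or for places where reads cannot be aligned, so the bound may be too low.

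**Figure D2:**
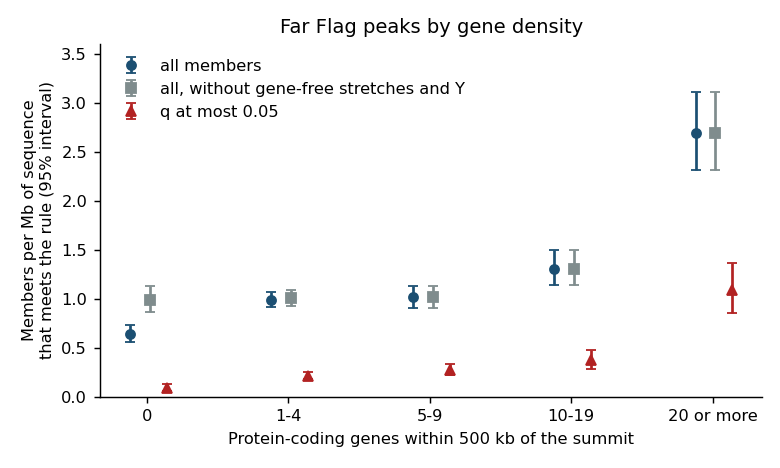
Regions per Mb of sequence that meets the rule (vertical axis) by the number of protein-coding genes within 500 kb of the summit (horizontal axis), with exact Poisson 95% intervals, for all regions, without gene-free stretches and chromosome Y, and with a q of at most 0.05. The rate is 0.640 with no gene, near 1 with 1 to 9 genes and 2.69 with 20 or more genes.

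Strength was read from the deposited values of each peak. Fold enrichment, which compares the summit's reads with the local background, had a median of 3.34 in the far regions (95% interval 3.25 to 3.37, range 1.44 to 8.43), 3.43 in gene bodies and 3.67 at protein-coding gene ends. A q, the p-value adjusted by the peak caller, of at most 0.05 was found for 392 far regions, 24.5% (exact 95% interval 22.5 to 26.7), where 32.8% of all compared Flag peaks reached it. The share was 26.4% in gene bodies (24.0 to 28.9), 35.5% at ends of other genes (30.6 to 40.6) and 44.0% at protein-coding gene ends (41.7 to 46.3). The interval of the far regions lies below those of both classes of gene end and overlaps that of gene bodies. A -log10 q of 5 or more was found for 32 far regions, 2.0% (1.37 to 2.82), beside 3.23% of all compared Flag peaks.

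**Figure D3:**
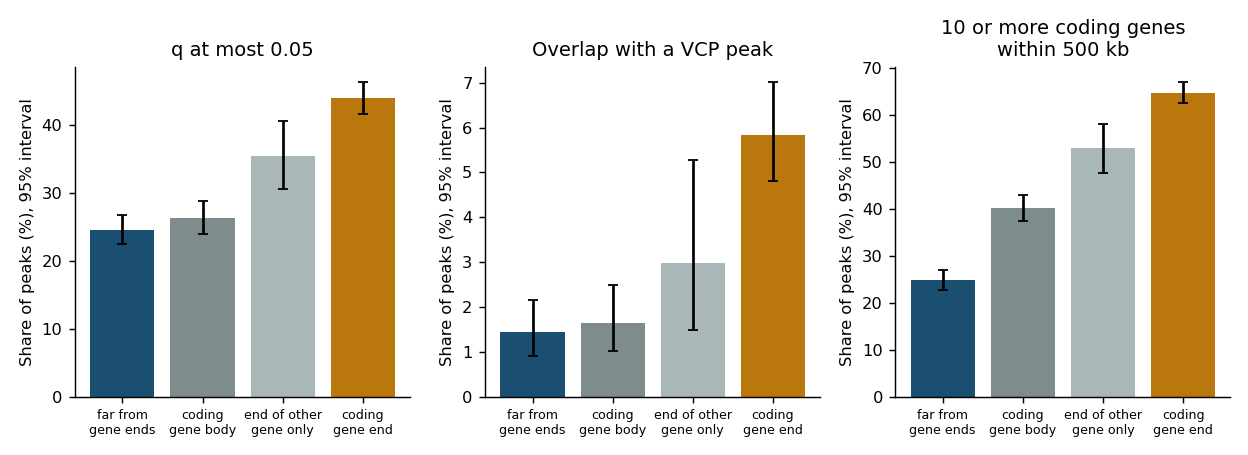
Share of Flag peaks in percent (vertical axes, exact 95% intervals) with a q of at most 0.05, with an overlapping VCP peak, and with 10 or more protein-coding genes within 500 kb, for the far regions and the other classes of Flag peak (horizontal axes). The far regions have 24.5%, 1.44% and 24.8%, and the peaks at protein-coding gene ends 44.0%, 5.84% and 64.7%.

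Strength varied with place inside the set. The share with a q of at most 0.05 was 33.1% at 1 to 5 kb from a protein-coding gene (exact 95% interval 26.2 to 40.6) and 14% over 500 kb from one (9.76 to 19.2), with 29.5%, 27.7%, 27.2% and 21.9% in the bins between. With gene density it went from 14% with no gene to 21.4%, 26.7%, 28.4% and then 40.3% with 20 or more genes (33.1 to 47.9). Regions inside non-coding genes (22.5%, 18.3 to 27.1) and outside every gene (25.2%, 22.8 to 27.7) had overlapping intervals. The local background moved the other way. It was more than 2 times its lowest value in 127 far regions (7.95%, 6.67 to 9.39; 6.75% of all compared Flag peaks), in 3.43% of those at 1 to 5 kb and in 14.8% of those over 500 kb from a protein-coding gene (10.5 to 20.1). Its part in the fall of strength with distance was not tested.

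The reads behind these values were few. They lay between 7 and 2804, with quartiles of 9 and 12, and 1573 of the 1597 regions had under 20. The lowest background of the list, 1.85 reads, applied to 529 regions (33.1%), so that many regions share the same few values of fold enrichment. The median width was 221 bp and the largest 2326 bp.

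**Figure D4:**
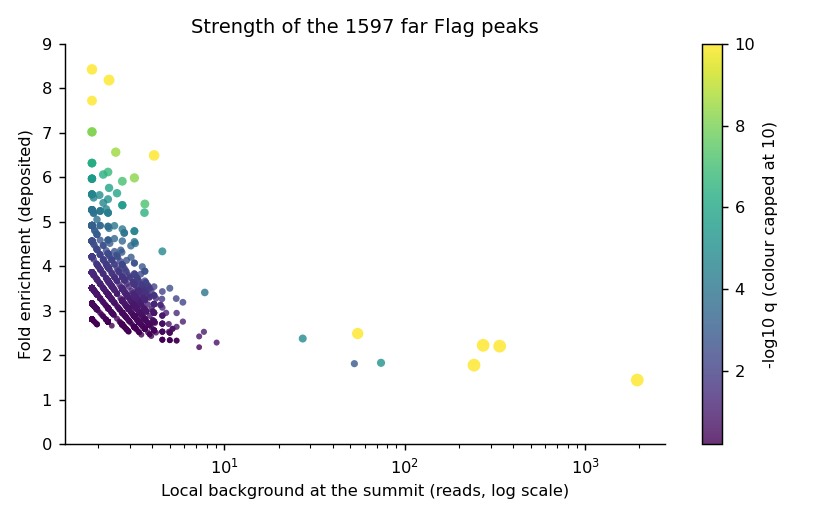
Deposited fold enrichment (vertical axis) against the recovered local background in reads (horizontal axis, log scale) for each of the 1597 far regions, with -log10 q as colour and point size. Most regions sit at a background under 5 reads, and a few at 27.2 to 1945 reads have fold enrichments of 2.49 or less.

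The highest -log10 q values belonged to 5 regions with high background. The top one, chr16:46390597-46390800, had 742 reads (exact 95% interval 690 to 797) over a background of 336, a fold enrichment of 2.20 and a -log10 q of 73.3. At chr3:93470468-93470686 there were 2804 reads over 1945, a fold enrichment of 1.44, which is the lowest of the whole set. The region chr1:125180082-125180264 had 606 reads over 272 and lay 3608321 bp from the end of any gene, farther than every other region. These places lie in gene-free stretches longer than 1 Mb. The other 2 were chr16:34588033-34588342 (431 reads over 242) and chr17:26881278-26881465 (138 reads over 54.9). The VCP library had its own peaks at 3 of the 5, with similar counts. There were 702 reads over 317 at the top one, with the identical summit, 380 over 229 at chr16:34588033-34588342, again with the identical summit, and 132 over 47.9 on chromosome 17, with the summit 28 bp away. Leaving out all regions with high background gave 24.7% with a q of at most 0.05 and a median of 12781 bp to the nearest gene end. The other 4 regions farthest from any gene had 8 to 14 reads. One at chr7:61837880-61838087 lay 844734 bp from a gene end (fold enrichment 5.27, 14 reads). A pair on chromosome 10 whose nearest gene is the pseudogene CHEK2P5 had fold enrichments of 2.78 and 2.98, and chr6:95095224-95095492 had 3.16.

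Among regions with low background the highest -log10 q, 13.2, was upstream of HES1, the repressor through which Notch signalling acts. It was chr3:194134677-194135326, its summit 1074 bp from the gene, with 26 reads (exact 95% interval 17 to 38.1) and a fold enrichment of 8.19. This summit is just inside the 1 kb limit, and another region lay 760 bp from it. A region downstream of VAMP2, a gene of vesicle fusion, followed on the -log10 q scale (chr17:8156370-8156686, 2611 bp from the gene, 32 reads, fold enrichment 6.49) although its background of 4.08 reads counts as high.

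The highest fold enrichment of the set, 8.43, was at chr1:181134736-181135516, 42235 bp downstream of IER5, an immediate early gene, with 23 reads (exact 95% interval 14.6 to 34.5). BHLHE40, which encodes a transcriptional repressor of the circadian and hypoxia responses, had a region 1126 bp upstream, inside its antisense gene BHLHE40-AS1 (chr3:4978139-4978667, fold enrichment 7.02, 19 reads). Its relative BHLHE41 had one 5455 bp downstream (chr12:26114446-26114675, fold enrichment 5.76). ID1, an inhibitor of bHLH transcription factors, had one 2275 bp downstream, 1545 bp from MIR3193 (chr20:31608299-31608854, fold enrichment 6.57, 22 reads). HES1, BHLHE40, BHLHE41 and ID1 all encode proteins with a helix-loop-helix domain. They were put together after their values were seen, and the family was not counted as a whole.

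Of the further regions with low background, those at CDKN1A, CCNL1 and ARHGAP12 were among the 10 with the highest fold enrichment. The others were picked for naming after their values were seen. CDKN1A, the cell cycle inhibitor p21 induced by p53, had a region 9183 bp upstream, 6341 bp from the non-coding gene PANDAR (chr6:36667213-36667465, fold enrichment 6.32, 17 reads). CCNL1, a cyclin of splicing control, had one 14968 bp upstream (chr3:157174943-157175373, fold enrichment 6.32, 17 reads), and ARHGAP12 had one 6429 bp upstream (chr10:31935177-31935653, fold enrichment 7.02, 19 reads). Upstream of IGF2BP3, an RNA-binding protein that is abundant in fetal and tumour tissue, 3 regions stood side by side at 5046, 7215 and 8255 bp, with fold enrichments of 5.40, 5.37 and 5.99, each on 19 to 24 reads. The nearest of these was the widest of the set at 2326 bp. IGF1R, a growth factor receptor gene, had a region 27222 bp upstream (chr15:98620995-98621519, fold enrichment 6.06). Regions of similar -log10 q lay nearest to ADGRL1 (fold enrichment 5.21), SERP2 (5.64), MAG, GABRR3 and FGF20 (5.97 each).

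Clustering was described by the distance between neighbouring regions. The median distance to the nearest other far region was 310990 bp. Another lay within 10 kb for 202 regions (12.6%, exact 95% interval 11.1 to 14.4) and within 100 kb for 502 (31.4%, 29.2 to 33.8). Gene-body peaks had 9.68% within 10 kb (8.12 to 11.4) and 28.6% within 100 kb (26.1 to 31.1), and peaks at protein-coding gene ends 11.7% (10.3 to 13.3) and 35.5% (33.3 to 37.7). At both distances the intervals of far regions and gene bodies overlap. Strong regions had company more often: 22.4% of those with a q of at most 0.05 had another region within 10 kb (18.4 to 26.9), and 9.46% of the rest (7.87 to 11.3). Counting only regions with a q of at most 0.05, 23% had another such region within 100 kb.

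Joining regions less than 100 kb apart gave 197 runs of 2 or more, 53 of 3 or more and 12 of 5 or more, and 1095 regions stood alone. The longest run had 10 regions within 64393 bp on chromosome 9. Of these, 5 lay inside MIR31HG, the non-coding host gene of the microRNA miR-31, and 5 beyond its end, and the nearest protein-coding gene was IFNE, an epithelial interferon. Its fold enrichments ran from 2.59 to 5.27, and 3 of the 10 had a q of at most 0.05. The highest, chr9:21576327-21576798 (5.27, 14 reads), was outside MIR31HG, 16921 bp from its end. Within the gene the highest far region had 3.44, so the strongest far region of this run was not inside MIR31HG. The span also held 3 Flag peaks of other classes, whose strength is not given here.

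The run of 9 on chromosome 7 lay inside LINC-PINT, a p53-induced non-coding RNA gene that holds 8 of them, and LOC105375508, over 184956 bp between KLF14 and MKLN1. Its fold enrichments were 3.11 to 4.92, and 5 had a q of at most 0.05. The highest fold enrichment was at chr7:131006880-131007645 (4.92, 13 reads), and chr7:130894218-130894626 had the highest -log10 q (4.79, 19 reads). LINC-PINT thus held more of the far regions than any other of the 326 non-coding genes with a region in them.

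ERRFI1-DT, the divergent transcript of the EGF receptor inhibitor gene ERRFI1, held 7 regions of another run of 9, which spanned 148222 bp on chromosome 1. In order along the chromosome the 7 had fold enrichments of 3.16, 2.81, 2.76, 4.57, 4.21, 3.86 and 4.47. The 3 that reached a q of at most 0.05 lay 56558, 68676 and 91878 bp from ERRFI1. Of these 7, the 4 with the highest fold enrichment were the 4 farthest from ERRFI1.

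The remaining pair of the 5 longest runs held 7 regions each and no host gene. On chromosome 2, 332709 to 504306 bp from NYAP2, fold enrichments were 3.16 to 4.91 and 4 of the 7 had a q of at most 0.05, with only 1 protein-coding gene within 500 kb of the strongest. On chromosome 18, 27803 to 94359 bp from SOCS6, a suppressor of cytokine signalling, they were 2.69 to 4.28 and 3 of the 7 had a q of at most 0.05. Neither run overlapped a VCP peak.

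Shorter runs were picked for naming after their values were seen. One of 6 regions on chromosome 4 lay beside the EGF receptor ligand genes AREG and BTC, with its highest value at chr4:74664547-74665027 (fold enrichment 5.37, 19 reads, 79858 bp downstream of BTC). Another of 6 lay upstream of the cadherin gene FAT1, up to 205826 bp away, where the farthest region had the highest fold enrichment, 6.32. On chromosome 7 a run had 6 regions within 9750 bp, 289230 bp from NFE2L3 at the strongest, chr7:25862861-25864258 (5.91, 21 reads). Near LIF and OSM, neighbouring cytokine genes, 4 regions lay within 4637 bp, with fold enrichments of 3.59 to 4.28. Near ELF3, an epithelial transcription factor gene, all 4 regions of a run had a q of at most 0.05 (3.81 to 4.57). Runs of 5 lay by GDF15 and JUND and inside MIR100HG, the host gene of miR-100. A further run of 5 lay 341720 to 376053 bp from its nearest protein-coding gene, KITLG, and 1 of its regions had a q of at most 0.05. Another run had 6 regions, all inside the non-coding gene LOC105369844, with KRR1 127127 bp from the strongest. Further runs of 4 had as the protein-coding gene nearest their strongest region TERF2, IRS1, PTMA, IER3, MDGA2, CLDN3, TBC1D1 or DOK5. Distances to these genes ran from 18603 bp for TERF2 to 278244 bp for DOK5 and 338689 bp for MDGA2. In the runs of TBC1D1 and DOK5, 0 regions had a q of at most 0.05.

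**Figure D5:**
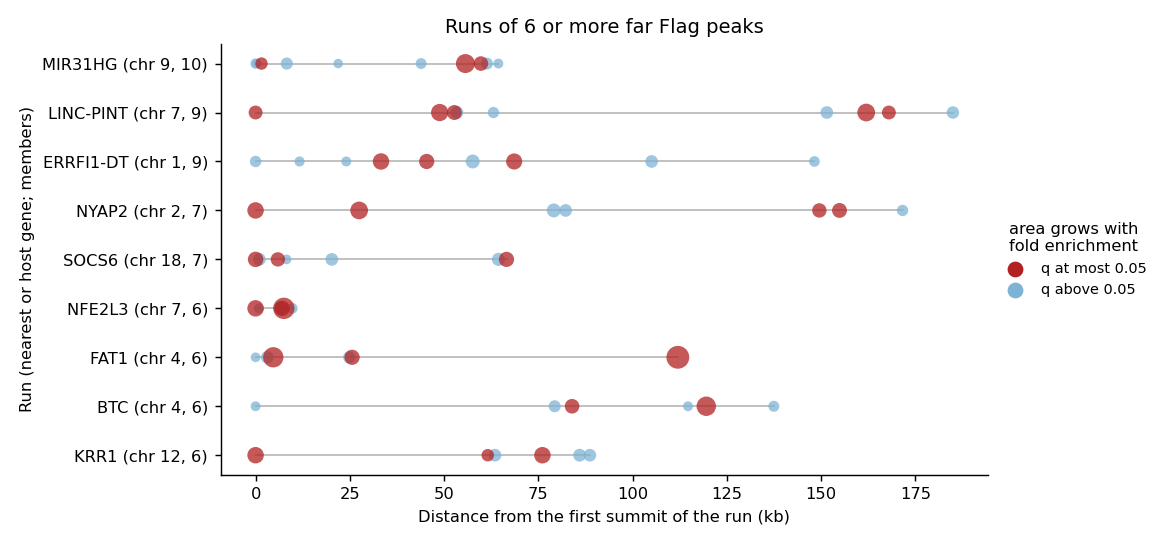
The 9 runs of 6 or more far regions, each drawn from its first summit, with distance in kb on the horizontal axis and the run, named by a host or nearest gene, on the vertical axis. Point area grows with fold enrichment and red points have a q of at most 0.05, and each run mixes red points with blue ones.

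Overlap with the VCP library was rare. A VCP peak overlapped 23 far regions by at least 1 bp, 1.44% (exact 95% interval 0.915 to 2.15), where 3.19% of all compared Flag peaks had an overlap, and these were 1.46% of the 1578 compared VCP peaks. The share was 1.64% in gene bodies (1.02 to 2.50), 2.98% at ends of other genes and 5.84% at protein-coding gene ends (4.81 to 7.01). Of the far regions with a q of at most 0.05, 12 overlapped (3.06%, 1.59 to 5.29). The summits of the 23 pairs were a median of 45 bp apart, and 14 were within 100 bp. On their own scale only 5 of the 23 VCP peaks had a q of at most 0.05, and 4 of the 23 regions had high background. By the same rule of place the VCP list had 719 far peaks of 1578 (45.6%, 43.1 to 48.1), a larger share than the Flag list. They had a median of 188099 bp to a protein-coding gene and 2 such genes within 500 kb. The lists differ in strength: only 28 of these 719 (3.89%, 2.60 to 5.58) had a q of at most 0.05, beside 24.5% of the far Flag regions.

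Outside the high-background places, the strongest overlap was inside the pseudogene LRRC37A11P, 16306 bp from PLXDC1. The Flag peak chr17:39046811-39047381 had a fold enrichment of 7.73 on 21 reads, and the VCP peak, its summit 119 bp away, 6.20 on 16 reads. At the CCNL1 region the VCP peak had 4.01 on 10 reads, with the summit 16 bp away. Near CLEC10A the summits were identical (chr17:7060541-7060770), with 5.97 on 16 reads in the Flag library and 4.01 on 10 in the VCP library. These overlaps were picked by their Flag -log10 q, a choice that favours high Flag values. Over all 23 overlapping pairs the fold enrichment was higher in the Flag library in 13 and higher in the VCP library in 10.

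GLIS2 (Flag fold enrichment 5.62, VCP 3.28), HMGN2 (5.27 and 4.31) and PTMA (4.90 and 3.49) also had overlaps picked in this way, at 6839, 23948 and 46020 bp from the gene. At chr11:65418538-65419303, 3827 bp from NEAT1, the non-coding RNA that builds paraspeckles, the Flag peak had 5.20 on 16 reads and the VCP peak 3.01 on 9. Among the 10 pairs with the higher VCP value, the widest gap lay 5820 bp from BCL3, a partner of NF-kappa-B, where the Flag peak had 2.81 on 7 reads and the VCP peak 5.84 on 15. That region was singled out after its values were seen. The libraries' fold enrichments are given side by side and were not tested against each other.

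Gene lists were read as the share of their genes with a far region within 50 kb, which was 6.66% over the 18592 protein-coding genes of the compared parts. Genes in dense neighbourhoods share regions, and the lists are small, so the shares are descriptions. Immediate early and MAPK feedback genes, which respond within minutes to growth signals, had 10 of 28 (35.7%, exact 95% interval 18.6 to 55.9), on 10 separate regions. They were IER5, IER3 (fold enrichment 4.46), IER2 (4.15), JUND (3.86), FOSB (3.02), FOSL2 (3.37), KLF2 (3.51), SPRY4 (3.51), SPRED2 (2.87) and ZFP36 (3.06), and only the regions at IER5, IER3 and IER2 had a q of at most 0.05. The FOSL2 region, 2171 bp from the gene, also overlapped a VCP peak. The immediate early genes IER2, JUND, FOSB, KLF2 and ZFP36 are on chromosome 19, the chromosome with the highest rate of regions.

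Targets of p53 had 5 of 24 (20.8%, exact 95% interval 7.13 to 42.2). Beside CDKN1A these were the stress cytokine gene GDF15 (fold enrichment 4.48), PHLDA3 (3.86), the kinase gene PLK2 (3.37) and the death receptor gene FAS (3.16), and CDKN1A and GDF15 had a q of at most 0.05. Genes of the intestinal epithelium had 4 of 19 (21.1%, 6.05 to 45.6): the keratin gene KRT8 (5.24), ELF3 (4.57), GATA6 (3.67) and KLF5 (3.16). The value over all genes, 6.66%, lies inside the interval of the intestinal list and just below that of the p53 list.

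Most other lists were near the value over all genes. Epithelial adhesion and matrix genes had 2 of 29 (6.90%), CLDN3 and CLDN4, on 1 shared region. VCP and its cofactors had 2 of 28 (7.14%), NSFL1C (fold enrichment 3.39) and UBXN8 (2.75). WNT targets had 1 of 17, CCND1, with its region 2218 bp away (3.81, 15 reads). Markers of other cell types had 1 of 25, the heart gene NKX2-5 (4.34, 23 reads, 48706 bp away). Olfactory receptor genes had 21 of 387 (5.43%) on 9 regions, zinc finger genes 21 of 462 (4.55%) on 17, and keratin-associated protein genes 11 of 60 (18.3%) on 2. Genes of these families lie side by side, and 1 region can count for several of them.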

How the data were processed

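Peak lists of the Flag and VCP libraries (1 each) were used, and the input was not used here. Bowtie 1.1.2, MACS2 2.1.0, Trimmomatic 0.33 and bcl2fastq 2.17 are listed, with the build hg38, per the submitters' processing notes. Settings of these tools are not given in any source used here. The deposited fold enrichment is the authors' ratio of reads at the summit to the background there. For each peak -log10 of p and of q was deposited by the authors, and the deposited score was left unused. In the Flag list the lowest -log10 p was 3.00, so it also holds peaks that do not pass a q of 0.05. There is 1 list per library.

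Whole reads and backgrounds were recovered from fold enrichment and -log10 p with a pseudocount of 1 read, and every peak matched within 0.001. Depth beyond these summit reads is unknown. Genes were those of a RefSeq table of GRCh38.p14 (58961 of 59792 rows kept, 19866 protein-coding). Starts and strands came from the RefSeq promoter table, which gave a strand to 15843 of the protein-coding genes, and starts on chromosome 8 were not analysed here. Sequence at each distance or density was counted on a 50 bp grid between the outermost genes of each chromosome. Assembly gaps and sequence where reads cannot be aligned were not taken out of it. Intervals are exact (Clopper-Pearson for shares, Poisson for reads and rates, order statistics for medians), at 95%. PCR reads are not independent molecules, so they cover counting error only. Named regions were the 10 with the highest -log10 q, the 10 with the highest fold enrichment, the 10 VCP overlaps with the highest -log10 q, the 5 farthest from any gene, the 5 longest runs, and members of 10 gene lists. Further regions, named after their values were seen, are low-background regions by -log10 q outside those lists (such as BHLHE41, IGF2BP3 and IGF1R), shorter runs and BCL3. Not every region the rule picks is named. The regions and lists were chosen with earlier results of these data known. Motif counts in the regions were not run, as no genome sequence was used here. Alternatives changed the q threshold, the distance limit, gene classes, windows, peak position and chromosome parts. The code was tested on simulated data. Analyses used Python 3.11.15, pandas 2.3.3 and scipy 1.17.1.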

Additional observations from a re-analysis of the deposited data

Results flagged for a closer look

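The chromosome parts left out by the rule held 184 Flag peaks that meet it otherwise. From 66 Mb on chromosome 8 there were 93, 2.03 per Mb (exact Poisson 95% interval 1.63 to 2.48), beside 1.00 per Mb on the rest of that chromosome. From 95 Mb on chromosome 10 there were 28, 1.53 per Mb (1.01 to 2.20), beside 1.09. From 40 Mb on chromosome 17 there were 63, 3.69 per Mb (2.84 to 4.72), beside 0.949. The share of these with a q of at most 0.05 was 29.0% on chromosome 8, 35.7% on chromosome 10 and 39.7% on chromosome 17. DNA copy number and gene density of the left-out parts were not examined, and their part in these rates was not tested. Contigs outside the chromosomes held 27 Flag peaks, which have no place on the gene map used here.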

How the results depend on the processing

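With 1 library per antibody no replicate could be left out, and no paired analysis was possible because each antibody has 1 library. The number of far regions was 392 with a q of at most 0.05, 32 with a -log10 q of at least 5 and 906 over 10 kb from every gene end. In the order of nearest gene end (median bp), share with another within 100 kb (%) and genes within 500 kb (median), the values were 11366.5, 23 and 6 at a q of at most 0.05, 6385, 15.6 and 6 at a -log10 q of at least 5, 23939, 28.5 and 3 over 5 kb, 34973, 26.8 and 2 over 10 kb, and 9343.5, 35.1 and 5 when only ends of protein-coding genes counted. Outside every gene body the first pair was 17238.5 and 28.6. The overlap with VCP peaks was 3.06% (1.59 to 5.29) at a q of at most 0.05. At a -log10 q of at least 5 it was 18.8% (7.21 to 36.4) of 32 regions. The latter overlaps include the high-background places on chromosomes 16 and 17, with backgrounds of 336, 242 and 54.9 reads. For gene lists, 6 of 10 above the value over all genes became 3 at a -log10 q of at least 5. Clustering was 23.1% at 50 kb and 41.7% at 200 kb, and gene density was 2, 9 and 17 with 250 kb, with 1000 kb and with genes of any class. The shifts with distance limit and window follow from how those alternatives are built, and fewer peaks lower the clustering; the cause of the others was not tested. The rate over 500 kb from a protein-coding gene was 0.961 per Mb without gene-free stretches and 0.989 without chromosome Y as well, the latter chosen after the data were seen. The share with a q of at most 0.05 has no value under the q thresholds. With the peak centre, the left-out parts of chromosomes 10 and 17 put back, or gene-free stretches or high-background regions left out, every value stayed within its interval, apart from the rate over 500 kb given above.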
